A study of Homo sapiens with 6 samples.

Results

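The genes described are 7 human amino acid transporters of the plasma membrane: SLC7A11, SLC7A5, SLC3A2, SLC7A1, SLC1A5, SLC38A1 and SLC38A2. They were taken by gene name, and all 7 were present among the 11658 genes of the gene table, with 28 of the 30432 entries of the transcript table. The cells were MKN45, a line established from a human gastric cancer and kept in medium with serum, and their RNA was sequenced. One group of 3 libraries came from cells transfected with an shRNA against the transcript tcons_00001221, and the other group of 3 from cells transfected with a control shRNA (labelled shRNA-NC). An shRNA is a hairpin RNA that the cell cuts into a small interfering RNA, which lowers the level of a matching transcript. The groups are called target and control here, and the comparison asks how the transporters differed when that transcript was targeted. The transcript itself was not analysed here, so the size of its knockdown is not part of these values. Whether the replicates of a group were cultured separately is not said in the labels, and p-values therefore reflect library-to-library spread that may be only technical.

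Amino acids cross the plasma membrane only with the help of transporters. SLC3A2 is a single-pass glycoprotein, the CD98 heavy chain, that carries SLC7 light chains to the cell surface. With it SLC7A5 (LAT1) takes up leucine and other large neutral amino acids in exchange for internal ones such as glutamine, and SLC7A11 (xCT) takes up cystine in exchange for glutamate and so feeds glutathione synthesis. SLC1A5 (ASCT2) exchanges glutamine and other neutral amino acids, SLC38A1 and SLC38A2 take up small neutral amino acids together with sodium, and SLC7A1 (CAT-1) takes up arginine and lysine without a heavy chain. Several of these genes are known targets of the transcription factor ATF4, which cells make when amino acids run short.

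The cystine transporter SLC7A11 was higher with the target shRNA, by 1.72-fold in mean FPKM, and was the 1 member of 7 to pass the test. SLC1A5, SLC3A2, SLC7A5, SLC7A1 and SLC38A1 had means 7.40% to 19.0% higher in the target libraries, with no overlap between groups, and did not pass. SLC38A2 was 3.47% lower in mean, with overlapping groups. FPKM counts fragments relative to transcript length and to the mapped total of the library. The test was limma on log2(FPKM + 1) over 10675 genes with Benjamini-Hochberg adjustment at 0.05. Of all these genes 0.749% passed, 57 higher in target libraries (0.534%) and 23 lower (0.215%), and in 16.6% every target library lay above every control library, as it did for 6 of the 7 members. The median log2 change was 0.16 for the 7 members and 0.03 for all tested genes. The 7 genes together held 0.353% ± 0.0029 of the summed FPKM in control and 0.388% ± 0.0061 in target libraries (SD, n = 3 per group).

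**Figure D1:**
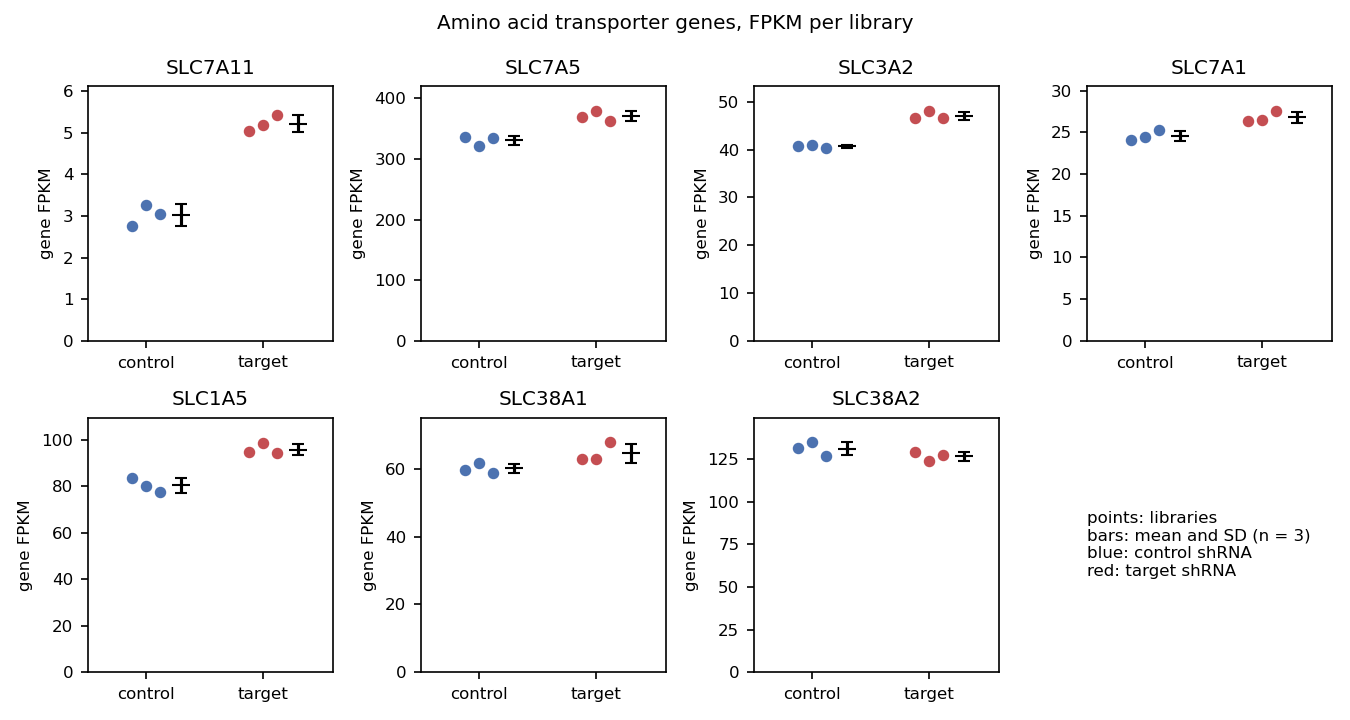
FPKM of the 7 transporter genes in each library (points, blue for control and red for target), with the mean and SD of 3 libraries beside them and every axis starting at 0. SLC7A11 lay between 2.76 and 3.27 FPKM in control and between 5.03 and 5.43 in target libraries, and SLC38A2 is the panel in which the groups overlap.

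The depth of the libraries is unknown, since the tables give FPKM and no counts. Sums of gene FPKM ranged from 186226 to 192101. Libraries of the same group correlated at Pearson's r of 0.985 to 0.988, taken across genes as a description. For libraries of different groups r was 0.983 to 0.986, so the ranges overlapped. Of 14 markers fixed for this gastric line 7 were listed, among them MET (82.8 FPKM in control), KRT18 (60.9), MUC1 (46.9), KRT8 (35.1) and EPCAM (7.26). The other 7, CDH1, KRT19, CDH17, CEACAM5, CEACAM6, TFF3 and CLDN18, were looked up and were absent from the gene table. The reason for their absence was not tested, and the markers thus match the label only in part. The summed level of the 7 listed markers was 238 to 253 FPKM in control and 226 to 237 in target libraries. Within it CLDN4 measured 11.0, 10.03 and 10.6 FPKM in control and 10.6, 0.0586 and 0.175 in target libraries, so it was near 0 in target replicates 2 and 3 only. Of 11 fibroblast markers 5 were listed, with sums of 215 to 227 and 195 to 219 FPKM that came mostly from VIM (203 FPKM in control), which many cultured cancer lines express, with LUM at 12.6, and COL1A2, COL3A1, COL6A3, PDGFRA, PDGFRB and THY1 were not among them. Of 4 endothelial markers 0 were listed. CD68, a macrophage and lysosome gene, measured 14.3, 15.2 and 12.5 FPKM in control and 10.5, 12.4 and 9.59 in target libraries, lower in every target library. The part of these differences in the transporter values was not tested. In bulk RNA, fewer cells with a transcript and less of it per cell cannot be told apart.

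The heavy chain SLC3A2 lies on chromosome 11 at 62623574 to 62656347, plus strand (GRCh37, as are all gene and transcript positions here). It measured 40.8, 40.9 and 40.3 FPKM in the control libraries and 46.6, 48.1 and 46.6 in the target libraries. The control values lay within 1 FPKM of each other, and the lowest target value was 5.71 FPKM above the highest of them. The means were 40.7 ± 0.288 and 47.1 ± 0.839 FPKM (SD, n = 3 per group), a log2 difference of 0.21, SE 0.03 (limma adjusted p = 0.0746). By size of the log2 change 9.70% of all tested genes rose more.

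SLC7A5, the leucine-transporting light chain on chromosome 16 at 87863629 to 87903094, minus strand, was the most abundant of the 7. It measured 336, 322 and 334 FPKM in control and 368, 379 and 363 in target libraries. Its mean over all libraries was above that of 99.6% of the genes in the table. The groups did not overlap, and the means of 330.4 ± 7.63 and 370.2 ± 8.18 FPKM gave a log2 difference of 0.16, SE 0.03 (limma adjusted p = 0.122). In absolute terms SLC7A5 had the largest difference of the 7 members, 39.8 FPKM, where SLC7A11 differed by 2.19 FPKM.

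SLC7A11, the cystine-transporting light chain on chromosome 4 at 139085251 to 139163503, minus strand, was the least abundant member. It measured 2.76, 3.27 and 3.04 FPKM in control and 5.03, 5.18 and 5.43 in target libraries. All 3 target libraries lay at least 1.76 FPKM above the highest control library. The means were 3.02 ± 0.256 and 5.21 ± 0.202 FPKM, a log2 difference of 0.63, SE 0.07, and a 95% confidence interval of 0.47 to 0.79 (limma adjusted p = 0.0187). The added 1 FPKM shrinks changes at such low levels, and with 0.01 FPKM added the log2 change was 0.79 (adjusted p = 0.0200). By log2 change SLC7A11 ranked 62nd of the 10675 genes, with 0.571% of them rising more. The call was lost with 1 library fewer in 5 of 6 cases. The adjusted p was 0.05004 without control replicate 1, 0.0753 without control replicate 3, and 0.0726, 0.0977 and 0.0815 without target replicates 1, 2 and 3, with log2 changes of 0.58 to 0.65. It was also lost when the listed transcripts were summed in place of the gene value (log2 change 0.64, adjusted p = 0.0649).

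**Figure D2:**
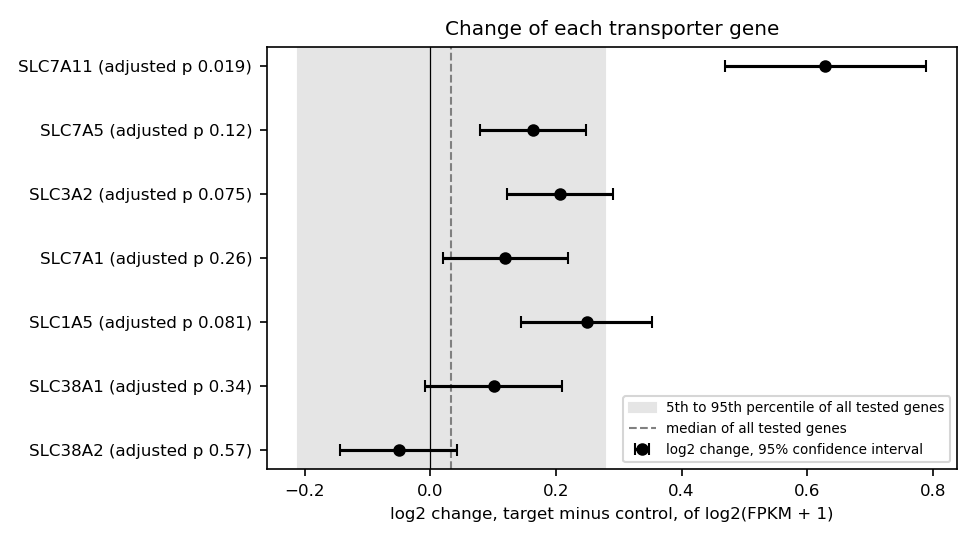
Log2 change of each transporter gene, target minus control, on the log2(FPKM + 1) scale, with its 95% confidence interval from limma. The grey band spans the 5th to 95th percentile of all 10675 tested genes (-0.21 to 0.28) and the dashed line is their median (0.03). SLC7A11 is the member outside the band.

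FPKM is per length, so the heavy chain and its light chains are set side by side within a library, but the size of these ratios depends on the table used. By gene value SLC3A2 was 0.405 to 0.426 of the sum of its listed transcripts, where SLC7A5 was 0.957 to 0.958 and SLC7A11 was near the sum, at most 1.02 of it. The light chains of SLC3A2 in the gene table were 3, namely SLC7A5, SLC7A11 and SLC7A6, a transporter of basic and neutral amino acids at 6.83 ± 1.13 FPKM in control and 6.64 ± 0.948 in target libraries. By gene value their sum was 8.37 ± 0.207 times the heavy chain in control and 8.11 ± 0.045 times in target libraries. The libraries overlapped in this ratio, at 8.43, 8.14 and 8.54 against 8.16, 8.11 and 8.07, and SLC7A5 made up most of it. SLC7A11 over SLC3A2 was 0.0676, 0.0800 and 0.0753 in control and 0.108, 0.108 and 0.117 in target libraries, so SLC7A11 was higher relative to its partner in all 3 target libraries. SLC7A5 stood at 110 ± 11.7 times SLC7A11 in control and 71.1 ± 3.66 times in target libraries. With transcript sums in place of gene values, an alternative chosen after seeing the data, the light chains summed to 3.62 ± 0.088 times SLC3A2 in control and 3.53 ± 0.098 times in target libraries, again with overlap. SLC7A11 over SLC3A2 was then 0.0306 ± 0.0021 and 0.0463 ± 0.0030, again higher in every target library. These ratios describe RNA, not assembled transporters, and were not tested.

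**Figure D3:**
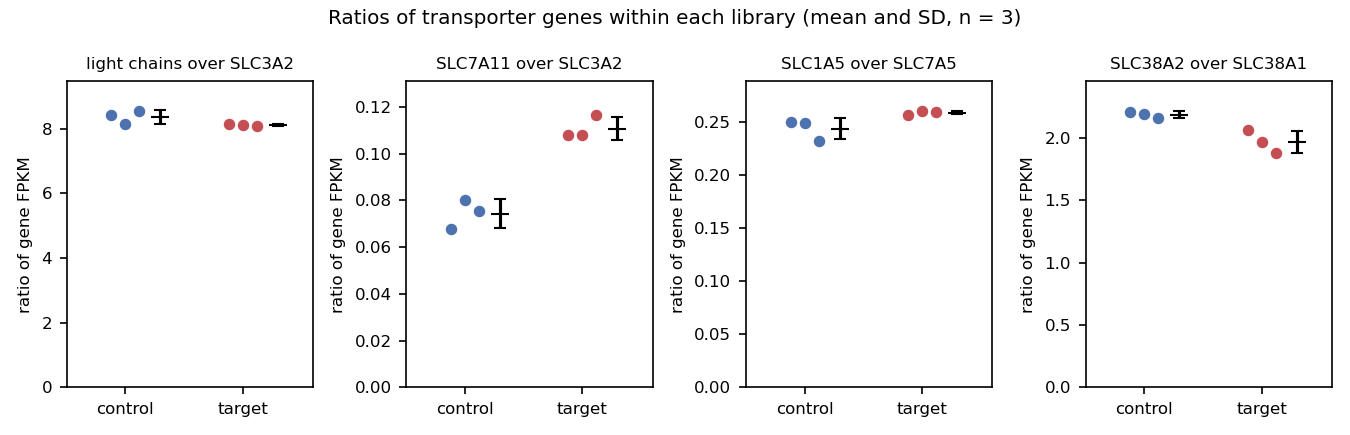
Ratios of gene FPKM within each library, with control in blue, target in red and the mean and SD of 3 libraries beside the points. The ratio of all light chains to SLC3A2 overlaps between groups, SLC7A11 over SLC3A2 and SLC1A5 over SLC7A5 lie higher in every target library, and SLC38A2 over SLC38A1 lies lower in every target library.

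SLC7A1, the arginine and lysine transporter on chromosome 13 at 30083547 to 30169825, minus strand, measured 24.1, 24.5 and 25.3 FPKM in control and 26.3, 26.5 and 27.6 in target libraries. Its groups came within 1.07 FPKM of each other without overlapping. The log2 change was 0.12 with an SE of 0.04 (limma adjusted p = 0.257), and 23.7% of all tested genes rose more.

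SLC1A5, the exchanger of glutamine and other neutral amino acids on chromosome 19 at 47278140 to 47291851, minus strand, measured 83.8, 80.2 and 77.4 FPKM in control and 94.6, 98.6 and 94.1 in target libraries. The groups were 10.3 FPKM apart at their nearest values. The means of 80.5 ± 3.20 and 95.8 ± 2.42 FPKM gave a log2 difference of 0.25, SE 0.04, the largest of the 6 members that did not pass (limma adjusted p = 0.0809). Under quantile normalization, which gives all libraries the same distribution, it passed (log2 change 0.23, adjusted p = 0.0450). That was 1 of 17 alternative fits, and it did not pass in the others. With all libraries rescaled to the same median the log2 change was 0.21 (adjusted p = 0.117). SLC1A5 over SLC7A5, a pair often described as working together on glutamine and leucine, was 0.2497, 0.249 and 0.232 in control and 0.257, 0.260 and 0.259 in target libraries. With transcript sums it was 0.370 ± 0.014 and 0.400 ± 0.0037, also higher in every target library.

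The sodium-coupled transporters SLC38A1 and SLC38A2 are neighbours on chromosome 12, both on the minus strand, at 46576846 to 46663800 and at 46751972 to 46766650. SLC38A1 measured 59.6, 61.6 and 58.8 FPKM in control and 62.7, 62.9 and 67.7 in target libraries. Its groups were 1.07 FPKM apart, and the log2 change was 0.10 with a 95% confidence interval of -0.01 to 0.21 (limma adjusted p = 0.342). SLC38A2, the best known of the family for its induction in amino acid shortage, measured 132, 135 and 127 FPKM in control and 129, 124 and 127 in target libraries. Its log2 change was -0.05 with a 95% confidence interval of -0.14 to 0.04 (limma adjusted p = 0.569), which leaves out a rise of the size seen for SLC1A5 or SLC7A11. SLC38A2 over SLC38A1 was 2.21, 2.19 and 2.16 in control and 2.06, 1.96 and 1.88 in target libraries, lower in every target library.

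By gene value the order of mean FPKM in both groups was SLC7A5, SLC38A2, SLC1A5, SLC38A1, SLC3A2, SLC7A1 and SLC7A11. In each group every library of a gene lay above every library of the next gene in this order. By transcript sums SLC3A2 stood above SLC38A1 in both groups, at 98.0 against 80.4 FPKM in control and 113 against 86.1 in target libraries, and the rest of the order was as by gene value. The step from SLC7A1 down to SLC7A11 was 8.14-fold in control and 5.14-fold in target libraries. The step from SLC38A2 to SLC1A5 was 1.63-fold in control and 1.32-fold in target libraries. The coefficient of variation of the 7 genes was 0.709% to 8.48% within control and 1.78% to 4.42% within target libraries.

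Most members were listed with 1 dominant transcript, and SLC3A2 and SLC1A5 with several. Of 20890 tested transcripts 0.287% passed the same limma test, 31 higher (0.148%) and 29 lower (0.139%). Of the 21 member transcripts tested 0 passed and 6 had an unadjusted p under 0.05, which 7.4% of all tested transcripts had. In 9 of the 21 every target library lay above every control library, where 9.12% of all tested transcripts did, and in 0 every target library lay below, where 6.07% did. SLC7A11 had 1 listed transcript, SLC7A11-001, at 2.999 ± 0.230 FPKM in control and 5.21 ± 0.194 in target libraries, and its log2 change of 0.64 did not pass among transcripts (limma adjusted p = 0.227). SLC7A1 also had 1, SLC7A1-001, at 25.7 ± 0.581 and 28.0 ± 0.728 FPKM (adjusted p = 0.702). SLC7A5-001 carried 99.7% ± 0.181 of the listed FPKM of SLC7A5 in control and 99.8% ± 0.127 in target libraries. Its level was 344 ± 8.52 and 385.5 ± 8.53 FPKM (adjusted p = 0.420). SLC7A5-002 was at 1.14 ± 0.592 and 0.9504 ± 0.487 FPKM.

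SLC3A2 had 12 listed transcripts. SLC3A2-001 was the leading one, with coordinates 62623574 to 62656265, and measured 56.9, 62.0 and 64.8 FPKM in control and 66.4, 72.1 and 65.6 in target libraries. SLC3A2-004 starts inside the gene, at 62648344, and encodes 529 residues in GENCODE v29 where SLC3A2-001 encodes 630. SLC3A2-004 measured 15.8, 12.5 and 11.0 FPKM in control and 17.8, 20.2 and 18.5 in target libraries. Both were higher in all 3 target libraries, with log2 changes of 0.15 (SE 0.07, limma adjusted p = 0.716) and 0.50 (SE 0.14, adjusted p = 0.527). The share of SLC3A2-004 in the listed FPKM of the gene was 13.4% ± 2.60 in control and 16.7% ± 0.488 in target libraries. The groups overlapped in it, at 16.2% in control replicate 1 and 16.1% in target replicate 1, and this share was not tested. That of SLC3A2-001 was 62.5% ± 3.51 in control and 60.4% ± 0.417 in target libraries. The share of SLC3A2-001 did not differ beyond its spread (exact permutation test, two-sided, p = 0.40). For 3 libraries against 3 the smallest p this test allows is 0.10. SLC3A2-005 and SLC3A2-021, which are incomplete models of 741 and 269 bases, measured 7.60 ± 1.31 and 3.75 ± 1.01 FPKM in control and 7.91 ± 0.817 and 5.54 ± 1.17 in target libraries. SLC3A2-003, which encodes 631 residues, measured 3.30 ± 0.277 and 3.51 ± 0.488 FPKM. SLC3A2-007, SLC3A2-026, SLC3A2-002 and SLC3A2-006 had means of 1.22 to 2.37 FPKM, with groups that overlapped.

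SLC1A5 had 5 listed transcripts. SLC1A5-005 led, at 86.2, 87.3 and 85.9 FPKM in control and 99.6, 102 and 102 in target libraries, a log2 difference of 0.22, SE 0.04 (limma adjusted p = 0.234). It encodes 313 residues in GENCODE v29, and the full-length form SLC1A5-001 encodes 541. SLC1A5-001 measured 43.0, 38.3 and 36.3 FPKM in control and 45.0, 48.2 and 44.6 in target libraries, a log2 difference of 0.23, SE 0.08 (adjusted p = 0.644). The forms thus differed between groups by nearly the same log2 change, and the share of SLC1A5-005 was 67.7% ± 1.99 in control and 65.4% ± 2.24 in target libraries (exact permutation test, two-sided, p = 0.20). SLC1A5-003 was low but apart between groups, at 1.39, 1.17 and 1.06 FPKM in control and 2.19, 2.47 and 2.51 in target libraries (log2 change 0.62, SE 0.13, adjusted p = 0.353). SLC1A5-007, a fragment of 774 bases with both ends missing, measured 0.491, 0.660 and 0.322 FPKM in control and 6.57, 6.65 and 0.445 in target libraries. It was high in target replicates 1 and 2 and at the control level in target replicate 3, and it missed the filter of 1 FPKM in 3 libraries and was not tested. Shares of short and overlapping models depend on how the authors' tool divided reads.

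SLC38A1-002 carried 88.5% ± 0.412 of the listed FPKM of SLC38A1 in control and 88.7% ± 0.098 in target libraries (exact permutation test, two-sided, p = 0.60). It measured 71.1 ± 1.67 and 76.4 ± 3.49 FPKM (limma adjusted p = 0.744). SLC38A1-006, SLC38A1-003 and SLC38A1-005, which like SLC38A1-002 encode 487 residues, had means of 1.37 to 5.36 FPKM and overlapping groups. For SLC38A2 the leading model was SLC38A2-003, which encodes 344 residues and starts inside the gene. It carried 82.7% ± 0.871 of the listed FPKM in control and 81.8% ± 0.770 in target libraries (exact permutation test, two-sided, p = 0.30). The full-length SLC38A2-001, of 506 residues, measured 32.1, 31.3 and 27.6 FPKM in control and 31.6, 31.3 and 30.1 in target libraries (limma adjusted p = 0.927). The gene value was not the sum of the listed transcripts: it was 0.405 to 0.426 of that sum for SLC3A2, 0.614 to 0.636 for SLC1A5, and 0.955 to 1.02 for SLC7A1, SLC7A5 and SLC7A11. The sums gave the same directions as the gene values for all 7 genes, with folds of 1.15 for SLC3A2 and 1.21 for SLC1A5.

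**Figure D4:**
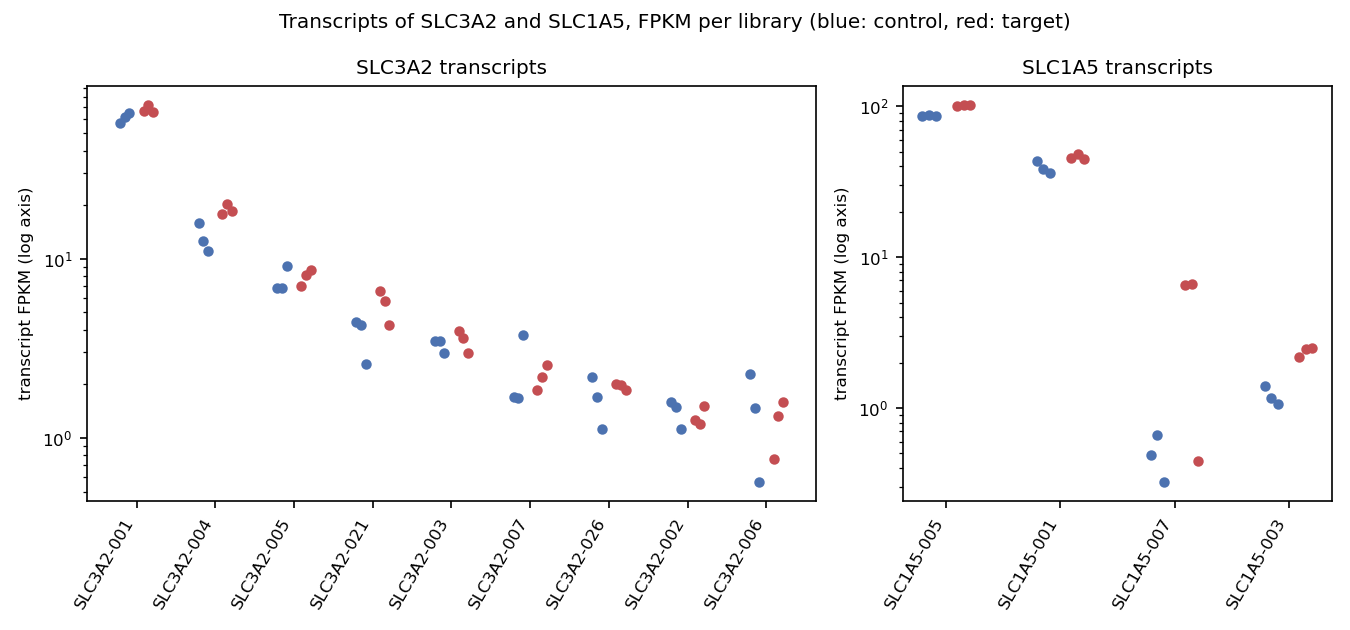
FPKM of SLC3A2 and SLC1A5 transcripts with a group mean of at least 1 FPKM, per library on a log axis (blue for control, red for target). SLC3A2-001, SLC3A2-004, SLC1A5-005, SLC1A5-001 and SLC1A5-003 have every target library above every control library, and SLC1A5-007 has 2 of 3 target libraries far above the rest.

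Promoter windows are shown where one of the motifs named next was found, and for the start sites nearest SLC3A2-001 and SLC3A2-004, whose levels are compared above. RefSeq windows on GRCh38.p14, from 250 bases before to 50 after a start site, were matched by symbol for 6 of the 7 members, with 11 windows in all. Searched on both strands were TGATGNAA, a core of the amino acid response element that ATF4 binds with C/EBP partners, and TGACNNNGC, a core of the antioxidant response element. Over all 35116 windows of this length 3.62% hold the first and 13.3% the second. Of the 11 member windows 4 hold the first and 4 the second, and no matches overlap. Matches are in capitals below, all sequences read 5′ to 3′ on the strand of the gene, and positions count from the start site. A match describes letters only.
SLC7A1, chr13:29595639-29595938, minus strand: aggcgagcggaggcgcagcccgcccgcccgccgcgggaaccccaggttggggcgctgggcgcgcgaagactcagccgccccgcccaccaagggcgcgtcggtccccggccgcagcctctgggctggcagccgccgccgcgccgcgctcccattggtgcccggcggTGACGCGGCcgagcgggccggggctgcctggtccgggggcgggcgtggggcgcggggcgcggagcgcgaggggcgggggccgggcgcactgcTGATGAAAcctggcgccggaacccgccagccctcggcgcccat
SLC3A2, chr11:62855859-62856158, plus strand: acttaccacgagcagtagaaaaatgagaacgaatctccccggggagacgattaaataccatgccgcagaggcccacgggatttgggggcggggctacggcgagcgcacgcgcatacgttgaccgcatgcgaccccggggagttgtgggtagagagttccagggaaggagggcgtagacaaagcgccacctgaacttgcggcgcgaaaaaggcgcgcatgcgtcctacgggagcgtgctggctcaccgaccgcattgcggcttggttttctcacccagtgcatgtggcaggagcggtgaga
SLC3A2, chr11:62880646-62880945, plus strand: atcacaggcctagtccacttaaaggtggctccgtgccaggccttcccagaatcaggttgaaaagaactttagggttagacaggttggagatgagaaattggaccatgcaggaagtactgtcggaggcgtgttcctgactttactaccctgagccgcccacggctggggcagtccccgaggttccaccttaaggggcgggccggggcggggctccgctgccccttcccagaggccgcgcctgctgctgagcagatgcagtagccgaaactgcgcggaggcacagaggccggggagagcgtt
SLC3A2, chr11:62881449-62881748, plus strand: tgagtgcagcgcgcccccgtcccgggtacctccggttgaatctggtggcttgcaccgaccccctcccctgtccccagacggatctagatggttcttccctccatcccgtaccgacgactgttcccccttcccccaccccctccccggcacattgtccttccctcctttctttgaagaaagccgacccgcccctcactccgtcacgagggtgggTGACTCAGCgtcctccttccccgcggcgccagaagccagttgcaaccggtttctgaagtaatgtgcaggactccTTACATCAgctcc
SLC7A5, chr16:87869458-87869757, minus strand: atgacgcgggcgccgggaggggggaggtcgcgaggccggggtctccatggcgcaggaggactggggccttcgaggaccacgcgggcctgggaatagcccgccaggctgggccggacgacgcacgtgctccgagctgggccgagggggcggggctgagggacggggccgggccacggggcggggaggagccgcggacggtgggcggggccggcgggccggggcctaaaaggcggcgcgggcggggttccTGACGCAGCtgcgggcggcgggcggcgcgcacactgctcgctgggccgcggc
SLC1A5, chr19:46787244-46787543, minus strand: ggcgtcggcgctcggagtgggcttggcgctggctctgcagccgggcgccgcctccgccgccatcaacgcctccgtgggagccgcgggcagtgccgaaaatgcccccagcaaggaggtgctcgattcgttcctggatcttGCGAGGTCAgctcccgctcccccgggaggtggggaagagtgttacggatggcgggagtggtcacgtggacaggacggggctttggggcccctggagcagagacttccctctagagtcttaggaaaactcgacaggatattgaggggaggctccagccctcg
SLC1A5, chr19:46784765-46785064, minus strand: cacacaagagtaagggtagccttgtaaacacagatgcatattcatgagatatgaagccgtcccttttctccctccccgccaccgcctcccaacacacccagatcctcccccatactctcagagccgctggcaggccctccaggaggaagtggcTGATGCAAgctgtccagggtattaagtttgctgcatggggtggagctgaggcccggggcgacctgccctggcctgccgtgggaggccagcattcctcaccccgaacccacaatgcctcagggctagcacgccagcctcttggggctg
SLC38A1, chr12:46266467-46266766, minus strand: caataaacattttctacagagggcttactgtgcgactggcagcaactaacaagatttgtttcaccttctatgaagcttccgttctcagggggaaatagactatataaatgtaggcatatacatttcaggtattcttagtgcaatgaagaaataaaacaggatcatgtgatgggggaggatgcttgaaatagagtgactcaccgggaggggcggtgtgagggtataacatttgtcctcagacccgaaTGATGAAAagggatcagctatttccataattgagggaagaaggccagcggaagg
The SLC7A1 window holds TGATGAAA at 8 to 15 after the start and TGACGCGGC at -85 to -77. The first 2 SLC3A2 windows, whose start sites lie 7 bases from the start of SLC3A2-001 and 24 bases from that of SLC3A2-004 in GENCODE v29, hold neither motif. The third SLC3A2 window, further inside the gene, holds TTACATCA, which reads TGATGNAA on the opposite strand, at 38 to 45 and TGACTCAGC at -37 to -29. In the SLC7A5 window TGACGCAGC spans the start site. The first SLC1A5 window lies at a start site 49 bases from that of SLC1A5-005 and holds GCGAGGTCA, a match to the second motif on the opposite strand, at -111 to -103. The other SLC1A5 window, further inside the gene, holds TGATGCAA at -97 to -90. In the SLC38A1 window TGATGAAA spans the start site, at -4 to 4. This start site lies further inside the gene, 1185 bases from that of the nearest listed transcript in GENCODE v29, whose means were below 1 FPKM. The RefSeq start site nearest the leading SLC38A1-002, 1025 bases from its start, has a window with neither motif. The member not matched was SLC7A11.

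The lists of related genes that follow were read from the same fit over all genes. Of 37 other amino acid transporters of the plasma membrane 12 were tested and 0 passed, with a median log2 change of -0.01. Those of smallest p were the glycine transporter SLC6A9 (6.19 ± 0.563 to 7.58 ± 0.244 FPKM, limma adjusted p = 0.185), the glutamate transporter SLC1A1 (12.1 ± 0.492 to 10.8 ± 0.465, adjusted p = 0.260) and the creatine transporter SLC6A8 (131 ± 1.42 to 125 ± 1.51, adjusted p = 0.351). Of these 12 the target libraries lay above all control libraries in 1 and below in 2. Over all genes the shares were 16.6% above and 7.18% below, and 0.749% passed. Of 10 lysosomal amino acid transporters 7 were tested and 0 passed (median 0.08). SLC36A4 measured 7.67 ± 0.353 and 7.08 ± 0.356 FPKM, MFSD12, which brings cysteine into lysosomes and melanosomes, 69.2 ± 2.75 and 73.0 ± 2.02, and SLC38A7 2.70 ± 0.371 and 3.04 ± 0.103. Of 15 mitochondrial carriers 12 were tested and 0 passed (median 0.05). The ornithine carrier SLC25A15 measured 3.72 ± 0.175 and 4.37 ± 0.347 FPKM, the glutamate carrier SLC25A22 5.26 ± 0.542 and 6.02 ± 0.198, and the glycine carrier SLC25A38 17.7 ± 1.41 and 16.0 ± 0.406.

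A list of genes of cystine and glutathione use, which also holds thioredoxin genes and redox regulators such as NFE2L2 and KEAP1, had a median log2 change of 0.16, and 0 of 19 tested passed. In 8 of the 19 every target library was above every control library and in 0 below, beside 16.6% and 7.18% of all tested genes. CHAC1, which breaks down glutathione, measured 1.28, 1.93 and 0.879 FPKM in control and 3.08, 2.77 and 2.63 in target libraries (log2 change 0.72, SE 0.16, limma adjusted p = 0.129). GCLM, a subunit of the enzyme that starts glutathione synthesis, measured 7.26 ± 0.736 and 9.23 ± 0.193 FPKM (adjusted p = 0.143). CBS, which makes cystathionine on the way from homocysteine to cysteine, measured 0.856 ± 0.392 and 1.92 ± 0.370 FPKM (adjusted p = 0.167). All 3 had non-overlapping groups and did not pass.

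A list of amino acid sensing upstream of the kinase complex mTORC1 also holds the mTORC1 subunits MTOR, RPTOR and MLST8 and the inhibitor DDIT4. Among its 28 tested genes 1 rose, 0 fell and 27 did not pass (median log2 change 0.05). Over all tested genes 0.534% passed as higher and 0.215% as lower. In 7 of the 28 every target library was above every control library and in 0 below, beside 16.6% and 7.18% of all tested genes. The riser was SESN2, a leucine sensor that holds mTORC1 back when leucine is low. It measured 3.602, 3.18 and 3.14 FPKM in control and 5.47, 5.84 and 5.46 in target libraries, a log2 difference of 0.62, SE 0.06 (limma adjusted p = 0.0185). Its call was lost without control replicates 2 and 3 (adjusted p = 0.0721 and 0.0716) and without target replicates 1, 2 and 3 (0.0743, 0.0943 and 0.0800), and with transcript sums (0.0687) and locus sums (0.0688). MLST8, a subunit of the mTOR complexes, measured 5.33 ± 0.416 and 6.501 ± 0.154 FPKM (adjusted p = 0.166), but the sum of its listed transcripts changed by -0.23 on the log2 scale. DDIT4, a stress-induced inhibitor of mTORC1, measured 380.4 ± 13.0 and 419 ± 13.9 FPKM (adjusted p = 0.213). It passed in 1 of 17 alternative fits, under quantile normalization (adjusted p = 0.0335). With rescaling to the same median it did not (adjusted p = 0.352).

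Of 15 tested partners and regulators of the transporters 1 rose, 0 fell and 14 did not pass (median log2 change 0.08). The shares over all tested genes were 0.534% higher and 0.215% lower. CEBPG, a partner of ATF4 on amino acid response elements, measured 6.67, 6.70 and 6.83 FPKM in control and 10.8, 10.2 and 11.0 in target libraries, a log2 difference of 0.59, SE 0.05 (limma adjusted p = 0.0084). ATF4 measured 111 ± 1.96 and 128 ± 1.48 FPKM (adjusted p = 0.0608), while the sum of its listed transcripts changed by -0.04 on the log2 scale. ARRDC4, an arrestin-like adaptor of ubiquitin ligases, measured 4.89 ± 0.270 and 6.29 ± 0.297 FPKM (adjusted p = 0.0993). In this list 6 genes had every target library above every control library and 2 every target library below, beside the same 16.6% and 7.18% of all tested genes. One of the latter was CD44, whose variant form stabilises SLC7A11 at the cell surface. CD44 measured 39.6, 44.0 and 37.0 FPKM in control and 31.97, 31.8 and 31.9 in target libraries, a log2 difference of -0.32, SE 0.07 (adjusted p = 0.110). All target libraries of CD44 lay below the lowest control library.

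**Figure D5:**
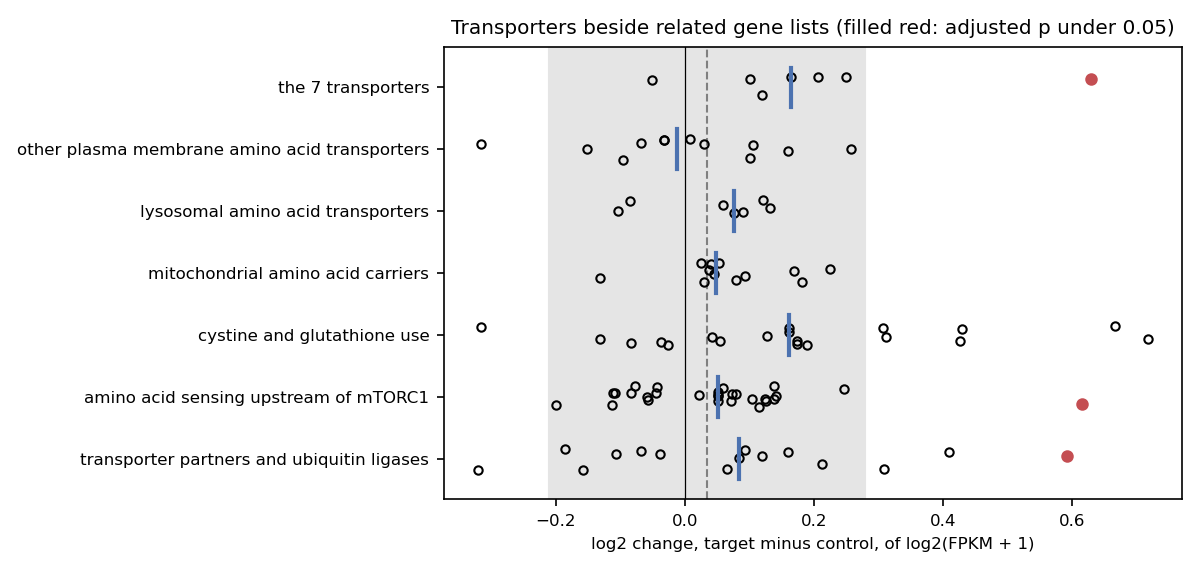
Log2 changes, target minus control, of the 7 transporters and of the tested genes of each related list (1 point per gene, filled red where the adjusted p was under 0.05, with vertical jitter). Blue bars are list medians, the grey band spans the 5th to 95th percentile of all tested genes and the dashed line is their median. SLC7A11, SESN2 and CEBPG are the 3 filled points.

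Over the 6 libraries, the genes of at least 5 FPKM whose log2(FPKM + 1) followed SLC7A11 most closely were EGLN1, an oxygen-sensing prolyl hydroxylase (Pearson's r = 0.997), the kinase SGK1 (0.994) and CCDC51 (0.994). For SLC7A5 they were the G protein subunit GNB1 (0.997), the peptide transporter TAP1 (0.993) and the potassium channel gene KCNK15 (0.993). The libraries of both groups are pooled in these values, so r reflects the difference between groups as well as the order within them, and they are descriptions of 6 libraries among many genes. SGK1 measured 3.78, 4.12 and 4.21 FPKM in control and 7.06, 7.05 and 7.47 in target libraries, and passed the test (log2 change 0.70, limma adjusted p = 0.0084). SGK1 was picked for likeness to SLC7A11, which differed between groups, so its own difference is not independent of that choice. The sum of its listed transcripts did not pass (adjusted p = 0.458). EGLN1 differed far less, at 47.0 ± 0.267 and 49.7 ± 0.231 FPKM (adjusted p = 0.315).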

How the data were processed

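Expression was measured by RNA sequencing of 3 target and 3 control libraries. Trizol extraction and Illumina library preparation are given per the labels' protocols. FPKM values for genes and for transcripts were deposited by the authors with 1 column per library. The submitters' processing notes name hg19 and GRCh37. Not given in the sources used here were the aligner, the quantification tool, the annotation and whether libraries were stranded. Every listed gene was protein-coding with a mean of at least 0.50 FPKM in its higher group. Whole reads could not be recovered. At the best of 400 trial steps 26.0% to 28.5% of low values fell within 0.1 of a whole multiple. Chance gives 20% at a single step, and the best of 400 lies above that by selection, so these shares are not alike.

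Genes and transcripts reaching 1 FPKM in 3 or more of 6 libraries were tested as log2(FPKM + 1) in limma 3.58.1 (R 4.3.3, limma-trend), with Benjamini-Hochberg adjustment over all tested features. Errors are SDs over 3 libraries or moderated SEs. Transcript lengths, residues and completeness come from GENCODE v29 by transcript identifier, on GRCh38, and windows from RefSeq. Python 3.11.15 with pandas 2.3.3 and matplotlib 3.10.9 served for tables and figures.

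The members and lists were chosen with earlier results of these data known. Named were all members, their transcripts with a group mean of at least 1 FPKM, list genes that passed or had the 3 smallest p, and the 3 genes most like SLC7A11 and SLC7A5. CD44, SLC6A6 and SLC1A4 were named after their values were seen. The list of immune markers is reported only in part here. Alternatives were other pseudocounts, filters, scalings, limma settings and thresholds, the replicate block, transcript and locus sums, and leaving out each library.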

Additional observations from a re-analysis of the deposited data

How the results depend on the processing

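The 7 member genes kept their direction under every alternative run. The number that passed was 1 in the main analysis, 0 with a mean of at least 5 FPKM (SLC7A11 is below it), 2 under quantile normalization, 0 with transcript sums, 0 with locus sums, 0 at a threshold of 0.01, 3 at 0.1, and 0 to 1 with a library left out. With the replicate number as a block 0 members passed (SLC7A11 adjusted p = 0.138) and calls over all genes went from 80 to 10. Across genes, deviations from the group mean correlated weakly between libraries of the same number (r of -0.01, 0.02 and 0.07). For different numbers r was -0.06 to 0.04. With 3 libraries per group these r cannot decide whether the numbers mark pairs, and SLC6A6 split by replicate number in both groups. The labels do not say whether the numbers mark pairs, and the main fit has no block. Calls over all genes were 27 with transcript sums, 21 with locus sums, 52 with a mean of at least 5 FPKM, 23 to 42 with a library left out and 67 to 78 in the other settings of the fit, and the cause was not tested.

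No member transcript passed under any alternative. Among the other lists 2 genes passed, 3 under quantile normalization, 1 with a mean of at least 5 FPKM, 0 with the block (SESN2 adjusted p = 0.163), 1 with transcript sums, 1 at a threshold of 0.01, 4 at 0.1, and 1 to 2 with a library left out. The ratio of light chains to SLC3A2 differed by -0.254 (target minus control) and by -0.369 to -0.170 with a library left out, and by -0.0865 with transcript sums.

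Log2 changes that changed sign were MLST8 (-0.23) and ATF4 (-0.038) by transcript or locus sums, and SLC38A1-006 under quantile normalization (-0.0016) and median rescaling (-0.0044). With a library left out the log2 changes of transcripts near 0 spanned both signs, from -0.0703 to 0.0769 for SLC38A1-006, -0.114 to 0.0464 for SLC38A1-003, -0.0300 to 0.0749 for SLC38A2-001, -0.0063 to 0.180 for SLC3A2-005, -0.0059 to 0.150 for SLC3A2-003, -0.168 to 0.246 for SLC3A2-007, -0.133 to 0.00996 for SLC3A2-002 and -0.372 to 0.160 for SLC3A2-006. Depth is unknown, so counting error at low FPKM could not be given.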

Other observations

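SLC6A6, the taurine transporter on the list of other plasma membrane transporters, split by replicate number in both groups. It measured 120, 28.3 and 28.9 FPKM in control replicates 1, 2 and 3 and 112, 26.4 and 27.0 in target replicates 1, 2 and 3. The library numbered 1 was the high one in each group. The transcript SLC6A6-201, on chromosome 3 at 14444076 to 14530855, plus strand, carried the split, at 146, 25.1 and 26.0 FPKM in control and 137, 24.0 and 24.9 in target libraries. The other 3 listed transcripts were at 0.583 to 6.34 FPKM. The cause was not tested.

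SLC1A4, a transporter of alanine, serine and cysteine, measured 4.08, 4.11 and 4.11 FPKM in control and 4.77, 2.38 and 2.52 in target libraries, so target replicate 1 lay above the control libraries and replicates 2 and 3 lay below them. Its single listed transcript showed 4.51, 4.82 and 6.15 against 7.12, 2.83 and 3.16 FPKM.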
